A study of Mus musculus with 10 samples.

Results

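The genes of RhoGEFs and RhoGAPs, the guanine nucleotide exchange factors and GTPase activating proteins of the small GTPases related to RhoA, were followed in intestinal epithelial cells (IECs) of the mouse colon. The members were chosen by name, as every row of the expression table whose symbol starts with Arhgef or Arhgap followed by a digit. Earlier results of these data were known when the rule was set. This rule gave 67 of the 55487 rows, made up of 26 RhoGEF rows, 35 RhoGAP rows and 6 antisense RNAs named after a RhoGAP gene. The 67 rows carry 65 symbols, because Arhgap26 and Arhgef4 each have a second gene identifier.

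The samples were 5 libraries from wild type (WT) mice and 5 from RhoB-/- mice, which lack the small GTPase RhoB. The labels give C57BL/6J as the strain of each sample, colon as the tissue and no treatment. The methods state that mice were used at 6 to 8 weeks of age unless noted otherwise, that RhoB-/- mice came from a model organism centre and that WT mice were purchased. For these samples the sources used here do not say whether the WT mice were littermates of the RhoB-/- mice, and a part of the source of the mice in any difference was not tested. IECs were released from the colon with EDTA and DTT, and no sorting step is described. The mutation is not described as limited to a cell type.

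These small GTPases are molecular switches that set the shape, adhesion and movement of cells through the actin cytoskeleton. RhoGEFs load them with GTP and switch them on, RhoGAPs speed up GTP hydrolysis and switch them off, and RhoGDIs hold them in the cytosol. In the gut epithelium these switches act on cell junctions, on the shedding of cells and on the renewal of crypts. Most RhoGEFs and RhoGAPs act on RhoA, Rac1 or Cdc42, and a few, such as the RhoGEF Arhgef3, are known to act on RhoB itself.

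Levels are given as TPM, the transcripts of a gene scaled to its length and to the total of its library, so that genes can be ranked within a library. This unit keeps no sequencing depth, and counting errors can therefore not be given. Rhob, the targeted gene, was at 170.52, 302.77, 364.92, 333.44 and 388.71 TPM in WT replicates 1 to 5 and at 0.09, 0.10, 0.35 and 0.57 TPM in RhoB-/- replicates 1 to 4. The library labelled RhoB-/- replicate 5 had 110.87 TPM of Rhob, below each WT library and far above the other libraries of its label. It was kept in its labelled group, and counts are also given without it. Epithelial markers summed to 23420 to 30170 TPM in WT and 25040 to 43110 TPM in RhoB-/- libraries, against 1.51 to 2.96 TPM for endothelial markers over both groups. Leukocyte markers summed to 18.7 to 30.7 TPM in WT and 42.2 to 76.8 TPM in RhoB-/- libraries, and mitochondrial genes took 17.5% to 26.5% and 10.3% to 22.4% of all TPM.

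The promoters of 5 members whose RNA differed between the genotypes are shown because their base composition differs widely. The windows are from RefSeq on GRCm38.p6, are 300 bases long, span the annotated start and are read 5′ to 3′ on the strand of the gene. Capitals mark GC boxes, searched as GGGCGG on either strand (also CCGCCC), where neighbouring matches may overlap.
Arhgef5: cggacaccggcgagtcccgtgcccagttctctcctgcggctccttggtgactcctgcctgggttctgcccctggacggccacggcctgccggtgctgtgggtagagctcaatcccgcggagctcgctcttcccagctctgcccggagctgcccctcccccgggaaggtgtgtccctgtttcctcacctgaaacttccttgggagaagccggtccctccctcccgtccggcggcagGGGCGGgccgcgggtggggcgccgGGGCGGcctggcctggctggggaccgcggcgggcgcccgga
Arhgef28: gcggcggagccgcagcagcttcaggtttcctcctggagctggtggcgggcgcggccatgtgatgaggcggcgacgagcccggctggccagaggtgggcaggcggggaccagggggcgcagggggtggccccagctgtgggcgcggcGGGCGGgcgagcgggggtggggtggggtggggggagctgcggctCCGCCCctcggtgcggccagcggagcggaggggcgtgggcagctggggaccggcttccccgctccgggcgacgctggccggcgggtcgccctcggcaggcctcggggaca
Arhgap17: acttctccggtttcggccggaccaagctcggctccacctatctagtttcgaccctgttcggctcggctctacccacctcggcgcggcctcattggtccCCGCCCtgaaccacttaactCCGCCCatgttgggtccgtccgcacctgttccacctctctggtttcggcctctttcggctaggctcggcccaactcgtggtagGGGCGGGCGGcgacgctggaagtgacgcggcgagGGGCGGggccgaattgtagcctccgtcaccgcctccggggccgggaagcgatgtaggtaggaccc
Arhgap20: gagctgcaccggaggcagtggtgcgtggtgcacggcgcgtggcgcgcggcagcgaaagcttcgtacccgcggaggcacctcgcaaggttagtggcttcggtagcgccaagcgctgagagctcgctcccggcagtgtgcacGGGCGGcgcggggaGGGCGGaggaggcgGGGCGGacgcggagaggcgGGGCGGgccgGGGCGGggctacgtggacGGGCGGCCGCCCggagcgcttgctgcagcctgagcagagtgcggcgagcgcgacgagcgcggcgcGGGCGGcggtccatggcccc
Arhgap27: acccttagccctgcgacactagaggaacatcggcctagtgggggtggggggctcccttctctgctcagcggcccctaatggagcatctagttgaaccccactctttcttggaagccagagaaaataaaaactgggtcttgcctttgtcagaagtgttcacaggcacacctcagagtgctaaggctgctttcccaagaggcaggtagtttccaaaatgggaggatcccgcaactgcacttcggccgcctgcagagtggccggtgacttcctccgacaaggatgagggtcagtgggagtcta

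The Arhgap20 window (chr9:51765101-51765400, plus strand) held 8 GC boxes and 77.0% G and C, and the Arhgap17 window (chr7:123369866-123370165, minus strand) held 5 and 66.3%. The windows of Arhgef5 (chr6:43265394-43265693, plus strand) and Arhgef28 (chr13:98206116-98206415, minus strand) held 2 GC boxes each, at 73.3% and 79.7% G and C. The upstream window of Arhgap27 (chr11:103363643-103363942, minus strand) held none, at 55.7%, and the second Arhgap27 start also had none. Windows were found for 47 of the 65 symbols, 74 windows in all. A GC box was in 35 of the 74 (47.3%), against 35.7% of all 32851 windows of the same length, and the median G and C content was 57.7% against 52.7%. CCAAT (or ATTGG) was in 28.4% of member windows against 37.4% of all, TTTGAA (or TTCAAA) in 9.46% against 17.9%, and the interferon response core GAAANNGAAA, on either strand, in 2.70% against 3.44%. These matches describe the letters in the windows and no more.

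The IECs expressed a small part of the family at a high level and most of it at a low level, and 26 of the 67 rows had a mean below 1 TPM over the 10 libraries. Among the RhoGEFs, Arhgef16, Arhgef5 and Arhgef1 had the highest levels. Arhgef16 (ephexin 4), an activator of RhoG, took 19.98% of the summed RhoGEF TPM in WT and 22.7% in RhoB-/- libraries. Arhgef5, an ephexin that acts on RhoA, took 14.9% and 21.4%. Arhgef1, which couples receptors of the G12/13 class to RhoA, took 10.99% and 9.51%.

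Among the RhoGAPs, Arhgap27 (CAMGAP1), which acts on Rac1 and Cdc42, ranked first with 20.1% of the summed RhoGAP TPM in WT and 29.2% in RhoB-/- libraries. Next came Arhgap1 (p50RhoGAP), which acts mainly on Cdc42, at 13.9% and 11.2%, and Arhgap21, a Golgi-linked GAP, at 10.6% and 9.21%. The sum over all RhoGEFs was 320.3 ± 34.6 TPM in WT and 348.1 ± 37.3 TPM in RhoB-/- libraries (SD, n = 5 each), and the sum over all RhoGAPs 358.8 ± 36.7 and 410.9 ± 55.0 TPM. The ranges of both sums overlapped between the genotypes, as did those of their ratio, which was 0.893 ± 0.0271 in WT and 0.850 ± 0.0506 in RhoB-/- libraries.

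**Figure D1:**
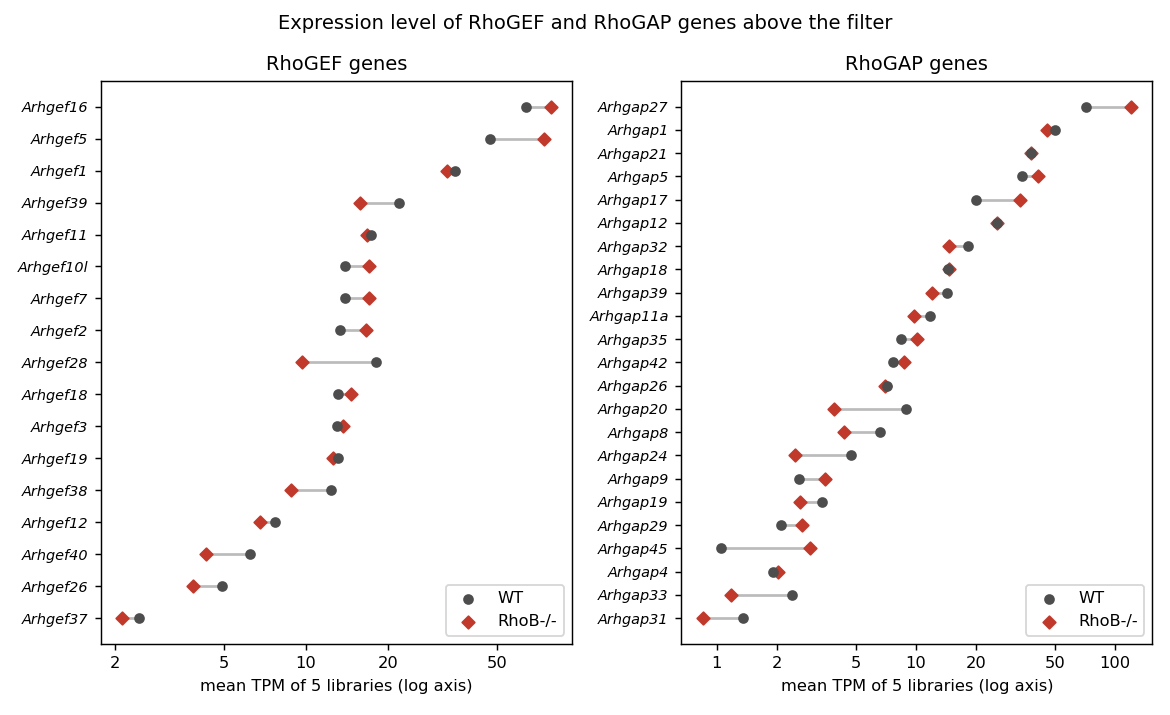
Mean TPM over 5 libraries (log axis) of the 17 RhoGEF and 23 RhoGAP genes that passed the filter, with WT as grey circles and RhoB-/- as red diamonds joined by a line. Most pairs lie close together, and the widest gaps are those of Arhgap45, Arhgap20 and Arhgap33, which are low, while Arhgap27 and Arhgef5 stand apart among the genes with the highest levels.

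The genotypes were compared with limma on log2(TPM + 1). Of the 12870 genes that reached a mean of 1 TPM and entered this fit, 41 were members (17 RhoGEFs, 23 RhoGAPs and the antisense RNA Arhgap27os2). Fold changes below are RhoB-/- minus WT on this scale, where the added 1 shrinks the change of weakly expressed genes. At an adjusted p below 0.05 (Benjamini-Hochberg over all 12870 genes, limma), 4 members were higher, 5 were lower and 32 were not called. The 4 higher members made up 9.76% of those tested, against 7.73% of all tested genes, and the 5 lower ones 12.2%, against 13.5%. Neither share stands far from its background. The median log2 fold change was -0.06 over the RhoGEFs and -0.02 over the RhoGAPs, beside -0.13 over all tested genes. That shift of -0.13 in the typical gene means that a member at 0 lay slightly above it.

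The thresholds of the study, a fold change above 1.5 together with an unadjusted p below 0.05, were applied to the limma fit. By these, 4 members were higher (6.37% of all tested genes were) and 4 were lower (8.33% were). These calls are not those of the study, which reported more genes higher than lower, while this fit gave 820 higher and 1072 lower. The genotypes did not overlap for 5 members with higher values in RhoB-/- mice, against 5.97% of all tested genes, and for 5 with lower values, against 8.55%. These 10 included Arhgef16, at a log2 difference of 0.30 (adjusted p = 0.0614, limma), and Arhgap31, at -0.33 (adjusted p = 0.177, limma), which were not called. The split depended on centring. With fold changes recentred on the median of all genes, 8 members were higher (11.2% of all genes) and 3 lower (5.99%), with Arhgap5, Arhgap9, Arhgef10l and Arhgef16 added to the higher ones. Quantile normalization gave 9 higher (12.3%) and 5 lower (15.3%). With TPM rescaled after leaving out mitochondrial genes, 5 members were higher (8.29%) and 7 lower (28.1%), with Arhgef16 added to the higher and Arhgap8 and Arhgef40 to the lower ones.

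Without the library labelled RhoB-/- replicate 5, the same 4 members were higher (5.6% of all tested genes) and 3 were lower (8.68%). Arhgap17 and Arhgef5 then had log2 fold changes of 0.55 and 0.52, under the 1.5-fold threshold, so that 2 members passed that rule in the higher direction. The count of lower members was also 3 without RhoB-/- replicate 1 (7.64% of all tested genes), WT replicate 2 (7.41%) or WT replicate 4 (6.66%), and 7 without RhoB-/- replicate 3 (22.3%), so it moved with the count over all genes. The library labelled RhoB-/- replicate 5 was the highest of its group for 20 of the 41 tested members, against 33.0% of all tested genes. WT replicate 2 was the highest of its group for 22 of the 41, against 46.2% of all tested genes.

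**Figure D2:**
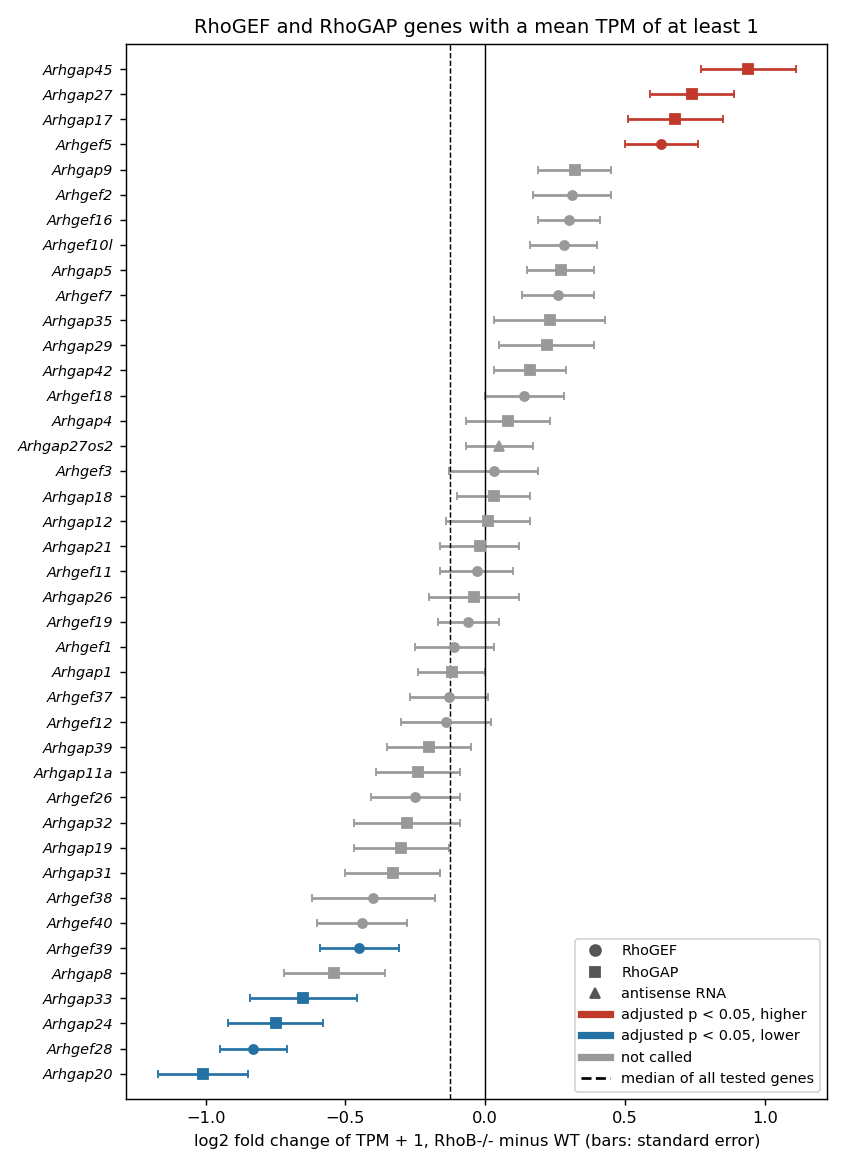
Log2 fold change (RhoB-/- minus WT, on log2(TPM + 1), bars are standard errors) of the 41 tested members, with circles for RhoGEFs, squares for RhoGAPs and a triangle for the antisense RNA. The 4 members called higher (red) lie between 0.63 and 0.94, the 5 called lower (blue) between -1.01 and -0.45, and the dashed line marks the median of all tested genes at -0.13.

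Among the RhoGEFs, Arhgef5 was the one called higher. Arhgef5 (ENSMUSG00000033542, chr6:43265582-43289320, GRCm38, plus strand) is a RhoA-directed exchange factor of the ephexin family that is activated by Src. Its TPM was 42.39, 51.01, 48.76, 45.57 and 49.28 in WT replicates 1 to 5 and 79.19, 63.96, 60.76, 71.52 and 98.30 in RhoB-/- replicates 1 to 5. The groups were separate, and the highest value was that of RhoB-/- replicate 5. The mean rose from 47.4 ± 3.42 to 74.8 ± 14.97 TPM (SD, n = 5 each), a log2 fold change of 0.63 (SE 0.13, adjusted p = 0.00683, limma). The gene overlaps Gm44253 on the same strand, at a mean of 0.802 TPM.

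The other ephexins did not pass the test. Arhgef16 (ENSMUSG00000029032, chr4:154278486-154301676, minus strand) was at 53.42, 73.09, 65.31, 64.41 and 63.07 TPM in WT libraries and at 76.50, 75.71, 75.79, 74.38 and 91.57 TPM in RhoB-/- libraries. The groups did not overlap, but WT replicate 2 lay just below the lowest RhoB-/- library. Arhgef19, which acts on RhoA, and Arhgef26, which acts on RhoG, had log2 fold changes of -0.06 and -0.25 in that order. Arhgef15, known from blood vessels, was below the filter, with means of 0.124 and 0.102 TPM in WT and RhoB-/- libraries.

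Arhgef28 was the most clearly lower RhoGEF. Arhgef28 (p190RhoGEF, ENSMUSG00000021662, chr13:97899469-98206439, minus strand) activates RhoA and binds focal adhesion kinase. Its TPM was 16.19, 20.69, 15.44, 21.51 and 16.30 in WT replicates 1 to 5 and 10.18, 8.28, 10.24, 9.73 and 9.82 in RhoB-/- replicates 1 to 5. The groups did not overlap, and the RhoB-/- libraries lay closer together than the WT libraries. The mean fell from 18.03 ± 2.84 to 9.65 ± 0.797 TPM (SD, n = 5 each), a log2 fold change of -0.83 (SE 0.12, adjusted p = 5.54e-04, limma). Its relatives Arhgef2 (GEF-H1), which is bound and held inactive by microtubules, and Arhgef18, which acts at epithelial junctions, had log2 fold changes of 0.31 and 0.14 and were not called.

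Arhgef39 was the third RhoGEF called. Arhgef39 (ENSMUSG00000051517, chr4:43496142-43499695, minus strand) is a small exchange factor known mostly from dividing tumour cells. Its TPM was 21.10, 24.28, 17.31, 26.40 and 20.15 in WT libraries and 12.87, 13.94, 20.12, 15.94 and 15.77 in RhoB-/- libraries, with RhoB-/- replicate 3 inside the WT range. The mean fell from 21.9 ± 3.56 to 15.7 ± 2.77 TPM (SD, n = 5 each), a log2 fold change of -0.45 (SE 0.14, adjusted p = 0.0398, limma). The call was lost without any single one of 8 libraries, the exceptions being RhoB-/- replicate 3 and WT replicate 3. The adjusted p then ran from 0.0582 without WT replicate 1 to 0.105 without WT replicate 4, and was 0.0711 without the library labelled RhoB-/- replicate 5.

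The RhoGEFs that couple receptors of the G12/13 class to RhoA did not pass the test, with log2 fold changes of -0.11 for Arhgef1, -0.03 for Arhgef11 and -0.14 for Arhgef12. Arhgef1 was at 32.57, 40.09, 32.38, 40.43 and 30.71 TPM in WT libraries and at 26.70, 28.84, 44.48, 30.89 and 33.87 TPM in RhoB-/- libraries, so both the lowest and the highest value were in RhoB-/- mice. Arhgef3, which acts on RhoA and RhoB, had 13.0 ± 1.47 TPM in WT and 13.6 ± 3.68 TPM in RhoB-/- libraries (SD, n = 5 each), a log2 fold change of 0.03 (SE 0.16). Arhgef7 (beta-PIX), an activator of Rac1 and Cdc42 that carries the kinase PAK, had 0.26 (adjusted p = 0.181, limma). Arhgef40 (Solo), a RhoA activator that binds keratin filaments, had -0.44 (adjusted p = 0.0662, limma).

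Of the RhoGAPs, 3 were called higher. Arhgap27 (ENSMUSG00000034255, chr11:103331497-103363692, minus strand) was at 67.12, 70.96, 75.42, 58.12 and 85.05 TPM in WT replicates 1 to 5 and at 108.29, 106.56, 99.26, 128.49 and 160.40 TPM in RhoB-/- replicates 1 to 5. Every RhoB-/- library was above every WT library, with RhoB-/- replicate 5 the highest. The mean rose from 71.3 ± 9.97 to 120.6 ± 24.8 TPM (SD, n = 5 each), a log2 fold change of 0.74 (SE 0.15, adjusted p = 0.00528, limma). Without RhoB-/- replicate 5 the log2 fold change was 0.63 (adjusted p = 0.00999, limma). Its antisense partner Arhgap27os2 overlaps it and stood at 3.98 ± 0.406 and 4.17 ± 0.563 TPM, which did not pass the test (log2 difference 0.05, adjusted p = 0.787, limma). The methods name an orientation mode for the alignment, but whether reads were counted by strand is not stated. Reads of Arhgap27 and its antisense partners therefore cannot be told apart here.

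Arhgap17 (RICH1, ENSMUSG00000030766, chr7:123279218-123369915, minus strand) acts on Cdc42 and Rac1 and is known for keeping tight junctions intact. Its TPM was 15.81, 24.87, 20.70, 19.76 and 19.62 in WT libraries and 36.43, 26.11, 26.58, 30.82 and 47.10 in RhoB-/- libraries. The groups did not overlap, but the highest WT and the lowest RhoB-/- library were close. The mean rose from 20.2 ± 3.24 to 33.4 ± 8.71 TPM (SD, n = 5 each), a log2 fold change of 0.68 (SE 0.17, adjusted p = 0.0152, limma). The gene overlaps Lcmt1 on the opposite strand, at a mean of 13.7 TPM. Its closest relative, Arhgap44, was below the filter.

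Arhgap45 had the largest positive fold change of the tested members but a low level. Arhgap45 (HMHA1, ENSMUSG00000035697, chr10:80016653-80031472, plus strand) is known mainly from blood cells. Its TPM was 1.0, 0.81, 0.74, 1.19 and 1.53 in WT libraries and 3.32, 2.42, 2.39, 2.58 and 3.99 in RhoB-/- libraries, with a clear gap between the groups. The mean rose from 1.05 ± 0.319 to 2.94 ± 0.698 TPM (SD, n = 5 each), a log2 fold change of 0.94 (SE 0.17, adjusted p = 0.00323, limma). Its relative Arhgap29, which acts on RhoA and is bound by Rap proteins, stood at 0.22 on the log2 scale (adjusted p = 0.366, limma). Leukocyte markers were also higher in RhoB-/- libraries, as given below, and their part in the Arhgap45 result was not tested.

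The 3 RhoGAPs called lower were at low to moderate levels. Arhgap20 (ENSMUSG00000053199, chr9:51765337-51853856, plus strand), a RhoA-directed GAP that binds Rap1, was at 6.09, 7.67, 9.29, 10.46 and 10.97 TPM in WT replicates 1 to 5 and at 2.76, 3.98, 4.01, 4.65 and 4.02 TPM in RhoB-/- replicates 1 to 5. The groups did not overlap. The mean fell from 8.90 ± 2.02 to 3.88 ± 0.688 TPM (SD, n = 5 each), a log2 fold change of -1.01 (SE 0.16, adjusted p = 0.00156, limma), the most negative of the tested members. Its antisense partner Arhgap20os was at 0.322 and 0.158 TPM.

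Arhgap24 (FilGAP, ENSMUSG00000057315, chr5:102481391-102897937, plus strand) binds filamin A and acts on Rac1. Its TPM was 3.70, 4.68, 4.46, 5.42 and 5.37 in WT libraries and 2.08, 1.79, 3.0, 3.62 and 1.81 in RhoB-/- libraries. The groups did not overlap, with RhoB-/- replicate 4 just below WT replicate 1. The mean fell from 4.73 ± 0.711 to 2.46 ± 0.814 TPM (SD, n = 5 each), a log2 fold change of -0.75 (SE 0.17, adjusted p = 0.0101, limma).

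Arhgap33 (ENSMUSG00000036882, chr7:30522226-30535060, minus strand), which acts on Cdc42, was at 1.78, 3.30, 2.16, 2.81 and 1.94 TPM in WT libraries and at 1.05, 1.25, 1.54, 1.44 and 0.58 TPM in RhoB-/- libraries. The lowest value was that of RhoB-/- replicate 5, and the groups did not overlap. The mean fell from 2.40 ± 0.639 to 1.17 ± 0.380 TPM (SD, n = 5 each), a log2 fold change of -0.65 (SE 0.19, adjusted p = 0.0299, limma). The call was lost without RhoB-/- replicate 1 (adjusted p = 0.0652), RhoB-/- replicate 5 (0.0654), WT replicate 2 (0.0720) or WT replicate 4 (0.0773). The related Arhgap31 and Arhgap32 had log2 fold changes of -0.33 and -0.28 and were not called.

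**Figure D3:**
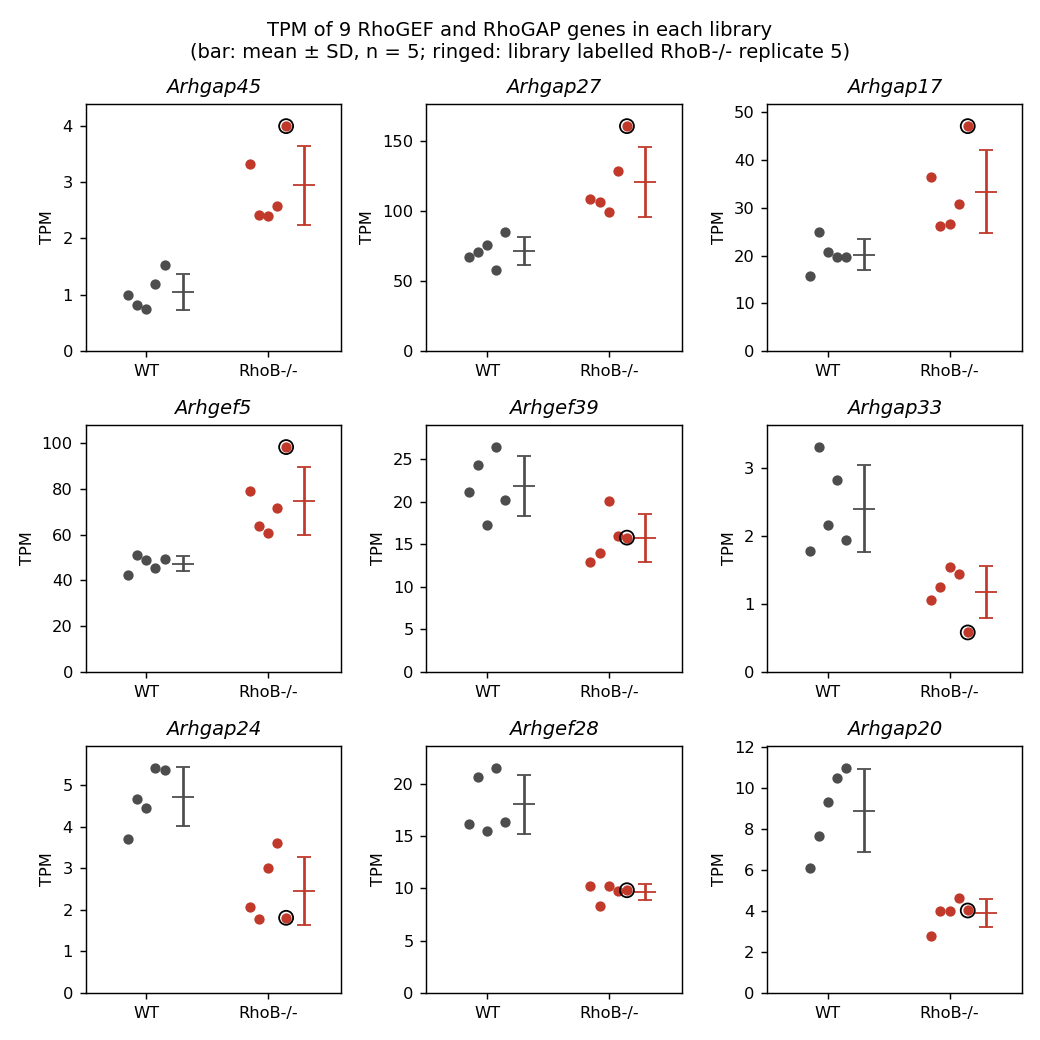
TPM of the 9 members with an adjusted p below 0.05 in each of the 5 WT (grey) and 5 RhoB-/- (red) libraries, with the mean and SD beside the points and the library labelled RhoB-/- replicate 5 ringed. The groups do not overlap for 8 of the 9 genes. For Arhgef39 a RhoB-/- library at 20.12 TPM lies within the WT range, and the ringed library is the highest of its group for the 4 genes called higher.

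The remaining RhoGAPs did not pass the test. Of the highest, Arhgap1 was at 44.93, 62.08, 40.43, 54.67 and 48.78 TPM in WT libraries and at 43.98, 40.57, 48.61, 48.79 and 46.09 TPM in RhoB-/- libraries. Arhgap21 had 38.0 ± 2.81 TPM in WT and 37.9 ± 7.68 TPM in RhoB-/- libraries (SD, n = 5 each), a log2 fold change of -0.02 (SE 0.14). The p190 GAPs Arhgap5 and Arhgap35, the main brakes on RhoA in many cells, had 0.27 and 0.23 (adjusted p = 0.145 and 0.419, limma). The GRAF members Arhgap26 and Arhgap42 had -0.04 and 0.16. Arhgap8, a relative of Arhgap1, had the largest fold change among members that were not called, at -0.54 (adjusted p = 0.0570, limma).

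Below the filter were 9 RhoGEF rows, 12 RhoGAP rows and 5 antisense RNAs, and 3 of these 26 rows were listed at 0 in every library. They were compared by an exact permutation test, two-sided, which relabelled the 10 libraries in all possible ways and whose smallest p is 0.00794. The groups did not overlap for Arhgap30 and Arhgef6, which were higher, and Arhgap36, which was lower (exact permutation p = 0.00794 each, unadjusted). Groups that do not overlap always reach this smallest p, so it adds nothing to the separation for which they were named. Among all 15244 genes with a mean below 1 TPM that were above 0 in at least 1 library, 1.26% did not overlap in the higher and 1.59% in the lower direction, and 23 of the 26 rows were among these genes. Arhgap30, a GAP for RhoA and Rac1, was at 0.25, 0.35, 0.32, 0.20 and 0.31 TPM in WT libraries and at 0.73, 0.98, 0.55, 0.78 and 1.40 TPM in RhoB-/- libraries.

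Arhgef6 (alpha-PIX), known mainly from blood cells, was at 0.35, 0.07, 0.07, 0.24 and 0.19 TPM in WT libraries and at 0.78, 0.39, 0.43, 0.42 and 0.59 TPM in RhoB-/- libraries. Its highest WT and lowest RhoB-/- values differed little. Arhgap36, known as an inhibitor of protein kinase A, was at 0.12, 0.20, 0.12, 0.15 and 0.12 TPM in WT libraries and at 0.00, 0.04, 0.00, 0.06 and 0.10 TPM in RhoB-/- libraries. With no filter on low TPM, the adjusted p was 0.0210 for Arhgap30, 0.0408 for Arhgef6 and 0.0384 for Arhgap36 (limma), and the log2 fold changes were 0.54, 0.36 and -0.14. Some other members below the filter had overlapping groups but an exact p below 0.05. Their means were 1.16 and 0.714 TPM in WT and RhoB-/- libraries for Arhgef10 (exact permutation p = 0.0317), and 0.422 and 0.212 TPM for the RhoA-directed Arhgap6 (exact permutation p = 0.0317). Arhgap23 had 0.038 and 0.114 TPM (exact permutation p = 0.0397). These p-values are unadjusted and two-sided. The share of all genes below the filter with such a p was not worked out, so no background stands beside them.

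Several members are known as genes of blood cells, and these were set beside leukocyte markers. The 7 members Arhgap4, Arhgap9, Arhgap15, Arhgap25, Arhgap30, Arhgap45 and Arhgef6 were grouped from background knowledge after their values were seen, so they carry no test. All 7 had a higher mean in RhoB-/- libraries, where 34.6% of all tested genes had a positive log2 fold change. Because the 7 were picked with these values known, members known from blood cells that went the other way may be missing. The summed TPM of the 7 members was 6.75, 5.37, 5.45, 7.39 and 6.64 in WT libraries. It was 11.3, 8.51, 9.89, 10.6 and 12.5 in RhoB-/- libraries, a fold of 1.67 between the means. The summed TPM of 17 leukocyte markers was 2.28-fold higher, with 17 of 17 means higher and 8 of the 10 tested markers called higher. Ptprc, the gene of the pan-leukocyte protein CD45, was at a mean of 1.97 (WT) and 5.92 TPM (RhoB-/-), and the T cell gene Cd3g at 2.23 and 5.23 TPM. In bulk RNA, more cells of a type and more RNA per cell cannot be told apart.

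Within this group the members differed. On the log2 scale the difference was 0.08 for Arhgap4 (adjusted p = 0.749, limma) and 0.32 for Arhgap9 (adjusted p = 0.102, limma). Arhgap15, a Rac1-directed GAP, was at a mean of 0.088 (WT) and 0.192 TPM (RhoB-/-) (exact permutation p = 0.0159, two-sided). Arhgap25 was at 0.216 and 0.518 TPM (exact permutation p = 0.0397, two-sided). Both p-values are unadjusted, and no share over all genes stands beside them either. The Arhgap4 gene overlaps L1cam and Naa10 on the same strand, at means of 46.8 and 44.3 TPM, so its value is uncertain where reads are shared.

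**Figure D4:**
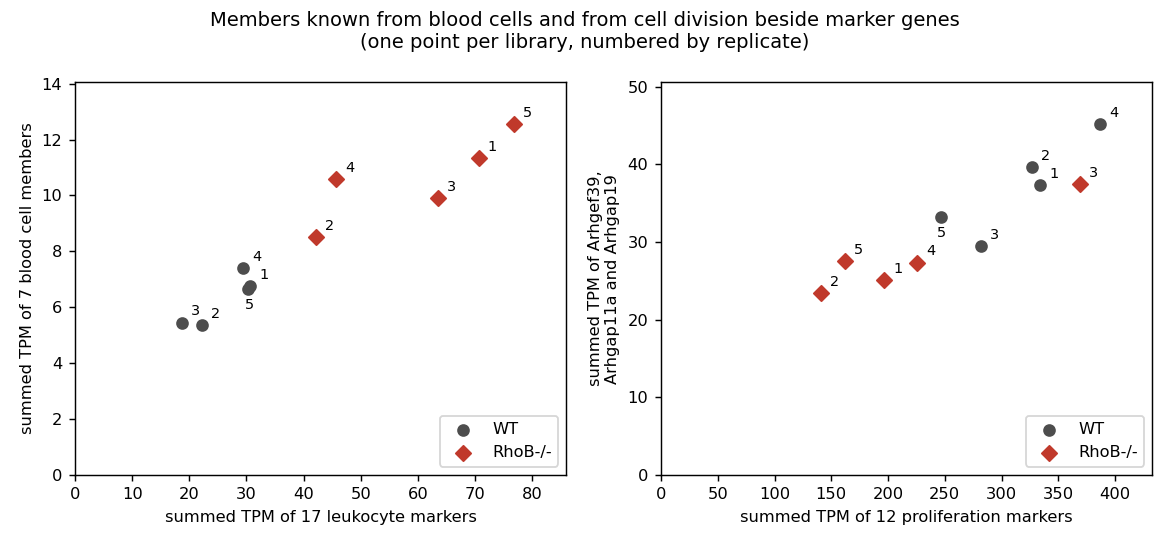
Summed TPM of 7 members known from blood cells against 17 leukocyte markers (left), and of Arhgef39, Arhgap11a and Arhgap19 against 12 proliferation markers (right), with 1 point per library numbered by replicate. On the left the RhoB-/- libraries lie above and to the right of the WT libraries, and on the right RhoB-/- replicate 3 lies among the WT libraries. The left group of members was formed, and Arhgef39 was placed in the right one, after their values were seen.

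Arhgap11a and Arhgap19 act on RhoA in dividing cells, and Arhgef39 was set beside them after its values were seen. Arhgap11a and Arhgap19 had log2 fold changes of -0.24 (adjusted p = 0.276, limma) and -0.30 (adjusted p = 0.219, limma). The sum of the 3 genes was 37.3, 39.6, 29.5, 45.2 and 33.2 TPM in WT libraries and 25.1, 23.4, 37.5, 27.4 and 27.6 TPM in RhoB-/- libraries. For this sum, RhoB-/- replicate 3 was the only one of its group within the WT range. Arhgef39 made up the largest part of the sum, so the sum largely repeats its pattern. For Arhgap11a alone, RhoB-/- replicates 1, 3 and 5 lay within the WT range, at 9.87, 13.09 and 9.51 TPM against 9.21 to 14.34 TPM. For Arhgap19 alone, only RhoB-/- replicate 3 did, at 4.24 TPM against 3.0 to 4.42 TPM. The 12 proliferation markers summed to 334.0, 326.7, 281.9, 386.6 and 246.4 TPM in WT libraries. They summed to 196.4, 141.0, 368.8, 225.3 and 162.3 TPM in RhoB-/- libraries, with only RhoB-/- replicate 3 within the WT range. All 12 markers had a lower mean in RhoB-/- libraries, and 4 of them, among them Mki67 and Plk1, were called lower. The other 8, among them Birc5 (-0.37) and Ccnb1 (-0.49), were not called. Of all tested genes, 34.6% had a positive log2 fold change and 13.5% were called lower. The part of dividing cells in the Arhgef39 result was not tested.

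Other parts of the preparation also moved. Of 6 enteroendocrine markers, 5 were called lower, and their sum was 418.1 to 589.9 TPM in WT and 169.0 to 271.9 TPM in RhoB-/- libraries. Among 12 epithelial markers, 3 were called higher. These were Krt20 and Vil1, genes of mature enterocytes, at log2 fold changes of 1.17 and 0.65, and Cdx2 at 0.42. The other 9 were not called, among them Car1 at 0.39, Slc26a3 at 0.28, Lgals4 at 0.1 and Cdx1 at -0.05. Fibroblast markers summed to 4.5 to 6.72 TPM in WT and 7.13 to 36.8 TPM in RhoB-/- libraries. The highest sum was in RhoB-/- replicate 5, where Dcn alone was at 24.51 TPM. Only 3 fibroblast markers were tested. Dcn was called higher (log2 fold change 1.5), and Col3a1 (0.6) and Pdgfrb (-0.42) were not called. Tuft cell markers summed to 4.41 to 12.1 TPM in WT and 8.98 to 14.1 TPM in RhoB-/- libraries. Of the 3 tested, Trpm5 (0.78) and Avil (0.81) were called higher and Dclk1 (0.61) was not called. WT replicate 1 was the highest WT library for each of these. Of 10 heat shock and immediate-early genes, which respond to handling and stress, 2 were called lower, the near-identical Hspa1a and Hspa1b. The mean of Hspa1a was 841.9 ± 166.3 TPM over the WT libraries against 54.8 ± 14.5 TPM over the RhoB-/- libraries (log2 difference -3.93), and that of Hspa1b 1131 ± 269.8 against 101.5 ± 27.6 TPM (-3.47, SD, n = 5 each), with no overlap of the groups. The other 8 genes were not called. Smooth muscle markers stayed at or below 2.28 TPM and markers of enteric neurons and glia at or below 1.07 TPM in sum. How far any of these contributed to the RhoGEF and RhoGAP values was not tested.

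The rest of the GTPase cycle was read in the same fit. Of 20 listed GTPases of the RhoA family 16 were tested, and 5 were higher and 1, Rhob itself, was lower, with a median log2 fold change of 0.24. These counts, and those of the lists that follow, stand beside 7.73% of all tested genes higher, 13.5% lower and a median of -0.13. The higher ones were Rhoc, Rac2, Rhof, Rhod (0.77) and Rhog (0.44), the last pair named after their values were seen. Rhoc, the close relative of RhoA and RhoB, rose from 172.3 ± 38.5 to 341.8 ± 61.7 TPM (SD, n = 5 each), which is 1.0 on the log2 scale (adjusted p = 0.00205, limma). Rac2, a Rac of blood cells, rose from 1.55 ± 0.656 to 3.94 ± 1.27 TPM (log2 fold change 0.95), and Rhof, which drives filopodia, from 18.9 ± 4.40 to 33.3 ± 6.14 TPM (0.79).

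Of the 3 RhoGDIs, the blood cell form Arhgdib rose from 1.14 ± 0.394 to 4.83 ± 1.43 TPM (SD, n = 5 each), a log2 difference of 1.43 (SE 0.19, adjusted p = 4.09e-04, limma), and the other two were not called. Of the 33 tested exchange factors of the Dbl family outside the Arhgef names, 4 were higher and 2 lower, with a median of 0.00. Kalrn, an activator of RhoG and Rac1, rose from 14.4 ± 0.728 to 28.1 ± 7.90 TPM (0.88), Plekhg6 by 0.71, and Spata13 (Asef2), which binds the Wnt regulator APC, fell from 9.28 ± 1.25 to 4.84 ± 0.249 TPM (-0.81). Plekhg5 had -0.64. Of the 7 tested Dock exchange factors, 1 was higher and 1 lower.

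Of the 20 tested RhoGAPs outside the Arhgap names, 1 was higher and 5 were lower, with a median of -0.25. Chn2, a Rac-directed chimaerin, rose by 0.71, while Fam13a and Syde2 had -0.72 and -0.69. Tagap, known from T cells, fell from 2.01 ± 0.764 to 0.744 ± 0.359 TPM (-0.78), in the direction opposite to the leukocyte markers. Of the 33 tested effectors and partners of these GTPases, 2 were higher and 4 lower, with a median of 0.04. Rock2, a kinase that drives actomyosin contraction downstream of RhoA, rose from 22.9 ± 1.37 to 40.6 ± 10.5 TPM (0.77), and the formin Daam1 by 0.61. Anln and Iqgap3, which act in dividing cells, had -0.64 and -0.63.

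Of the 26 called genes of these lists other than Rhob, 15 kept the call without each of the 10 libraries and 11 lost it without at least 1. Without the library labelled RhoB-/- replicate 5, the adjusted p (limma) was 0.0564 for Plekhg5, 0.0642 for Tagap, 0.0733 for Anln and 0.109 for Iqgap3. Each of these calls was also lost without WT replicate 2 (0.0584, 0.0691, 0.0798 and 0.0966) or WT replicate 4 (0.0632, 0.0556, 0.0976 and 0.119). Tagap was further lost without WT replicate 5 (0.0655) or RhoB-/- replicate 4 (0.0527), and Anln without WT replicate 1 (0.0559) or RhoB-/- replicates 2 or 4 (0.0706 and 0.0793). Iqgap3 kept its call only without WT replicate 3 or RhoB-/- replicate 3. Rhod lost its call without RhoB-/- replicates 1, 4 or 5 or WT replicates 1, 2 or 4 (adjusted p up to 0.0733), and Rhog kept it only without RhoB-/- replicate 2 or WT replicate 3 (up to 0.0859). With recentring on the median the adjusted p was 0.0616 for Plekhg5, 0.0640 for Tagap, 0.0958 for Anln and 0.115 for Iqgap3, and these calls were also lost with no filter on low TPM. The calls of Rhoc, Rac2, Rhof, Arhgdib, Kalrn, Plekhg6, Spata13, Chn2, Fam13a, Syde2, Rock2 and Daam1 were kept without each of the 10 libraries.

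**Figure D5:**
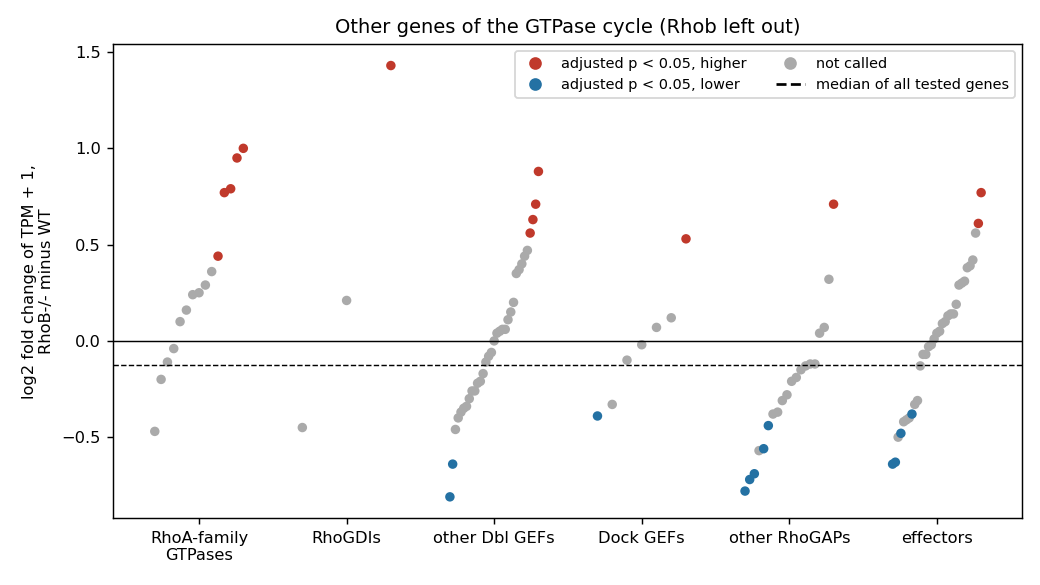
Log2 fold change (RhoB-/- minus WT, on log2(TPM + 1)) of each tested gene in 6 lists of the GTPase cycle, with Rhob left out because it lies at -6.61. Called genes are red (higher) or blue (lower), and the largest positive values are those of Arhgdib at 1.43 and Rhoc at 1.0.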

How the data were processed

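RNA of colonic IECs was sequenced in 5 WT and 5 RhoB-/- samples. Per the labels and methods, the authors trimmed paired-end reads with SeqPrep and Sickle. The submitters' processing notes name HISAT2, StringTie, RSEM, edgeR and the build GRCm38.p6, with no versions. The deposited values are TPM per gene, used as given. TPM is relative within a library, so a gene that takes a large share lowers the rest. Depth and the use of strand in counting are not given in the sources used here.

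Genes that reached a mean TPM of 1 were compared with limma 3.58.1 (lmFit, eBayes with an intensity trend, R 4.3.3) on log2(TPM + 1), a pseudocount of 1, with Benjamini-Hochberg adjustment over all 12870 genes and no covariates. The calls use an adjusted p below 0.05, or the study's thresholds, a fold change above 1.5 with an unadjusted p below 0.05. Members below the filter were compared by the exact permutation test over samples, two-sided. Fits were tested on simulated data. Nothing says that the samples of a group are from separate litters, so p-values measure the spread between these samples. Labels number the replicates 1 to 5 in both genotypes, but the mice differ and nothing states that a number marks a shared batch.

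Members, gene lists and tests were chosen with earlier results of these data known. Described in full are members with an adjusted p below 0.05, the 3 highest RhoGEFs and RhoGAPs, members below the filter whose groups did not overlap, and up to 4 genes per list of the GTPase cycle. The values of 1 member are not reported here. Other members are named with values by family. Positions are from GENCODE M21 (GRCm38), matched by gene identifier for 67 of 67 rows, and promoter windows from RefSeq. Alternatives were a pseudocount of 0.1, other filters, recentring, quantile normalization, limma without the trend, leaving out mitochondrial genes, a replicate block and leaving out each library in turn.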

Additional observations from a re-analysis of the deposited data

Results flagged for a closer look

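In 3 of 33 groups of 5 values examined, 1 sample stood far from the other 4 by Dixon's criterion, where chance alone gives about 1.6. Rhob reached 110.87 TPM in RhoB-/- replicate 5 as labelled, against at most 0.57 TPM in the other libraries of its label. Arhgef16 was at 91.57 TPM in the same library, against 74.38 to 76.50 TPM in the rest of its group. Arhgef28 was at 8.28 TPM in RhoB-/- replicate 2, against 9.73 to 10.24 TPM in the rest of its group, and every one of these values lay below the WT libraries.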

How the results depend on the processing

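The calls of Arhgap17, Arhgap20, Arhgap24, Arhgap27, Arhgap45, Arhgef5 and Arhgef28 were kept in 10 of 10 fits that left out a library and in 8 of 8 other alternatives. Arhgap33 was called in 6 of 10 and 6 of 8 (lost with no filter on low TPM and with recentring), and Arhgef39 in 2 of 10 and 5 of 8. Recentring on the median gave 8 higher and 3 lower members at an adjusted p below 0.05, which follows from adding the shift of all genes. Quantile normalization gave 9 higher members, and 2 lower members at the 1.5-fold threshold, and the cause was not tested. Leaving out mitochondrial genes gave 5 higher and 7 lower members, and Arhgef5 then missed the 1.5-fold threshold. With single libraries left out, the members called higher at an adjusted p below 0.05 numbered 4 to 5 and those called lower 3 to 7, and at the 1.5-fold threshold 2 to 4 and 3 to 5. The median log2 fold change then ran from -0.11 to -0.03 for RhoGEFs and from -0.10 to 0.06 for RhoGAPs. With the replicate number as a replicate block, 4 members were higher and 4 lower, and the adjusted p (limma) was 0.0888 for Arhgef39, 0.0525 for Plekhg5, 0.0689 for Tagap, 0.0683 for Anln and 0.066 for Iqgap3. Same-numbered samples correlated at 0.0241, 0.0164, 0.072, -0.0874 and -0.00245 in their deviations, and 2 of 10 libraries correlated best with their own number, so the numbers were not taken as pairs. TPM keeps no depth, so the counting error of members below the filter is unknown.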
